A study of Homo sapiens with 32 samples.

Results

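The 10 genes described here are the cadherins CDH1, CDH2 and CDH3, the cytoskeletal and matrix genes VIM and FN1, and the transcription factors ZEB1, ZEB2, SNAI1, SNAI2 and TWIST1, which mark or drive the epithelial-mesenchymal transition (EMT). They were taken by symbol from the rows classed as protein-coding in both deposited count tables, and all 10 of 10 symbols were found, among 19815 protein-coding rows and 60554 rows in all. RNA-Seq was performed on 32 libraries from 2 human breast cell lines, with 16 libraries per line. MCF10A is an immortalised, non-tumourigenic breast epithelial line grown with EGF, insulin, hydrocortisone and cholera toxin, and MDA-MB-231 is a line from a metastatic triple-negative breast carcinoma. Each line was left in normoxia (N), kept at 0.5% O2 for 24 hours (hypoxia, H), treated with 2.5 µM PP242 for 3 hours in normoxia (NPP), or given both (HPP), and every one of these 4 conditions had 2 biological replicates. PP242 competes with ATP in the mTOR kinase and so inhibits mTORC1 and mTORC2, and the untreated cells of the study received its solvent DMSO. Total RNA (T) and the RNA sedimenting with polysomes (P) were sequenced from each condition, which gave 8 groups of 2 libraries per line. The T and P libraries of one condition and replicate carry a shared number in their titles, read here as one culture, so that T and P values of a gene are not independent. Library totals ran from 18340916 to 46032327 counts with a median of 34561484. Each line is a single established line, and each line has its own count table and barcode series, so that line and table cannot be told apart.

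During EMT, epithelial cells give up the E-cadherin junctions that hold them to their neighbours, take up N-cadherin, vimentin and fibronectin, and become motile. The Snail, ZEB and TWIST factors bind E-box sequences and repress CDH1 and other epithelial genes, and TGF-β and hypoxia are classical inducers of these factors. Polysome association separates mRNAs that are being translated from the total pool, and a change in translational efficiency (Te) is here the difference between a gene's log2 fold changes in the polysomal and the total pool.

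The labels were first checked against defining markers. In the 16 libraries labelled MCF10A the basal keratins KRT5 and KRT14 ran from 45558 to 144933 and from 21752 to 186385 counts. CDH1, by contrast, had 0 to 16 counts, EPCAM 4 to 16, the luminal keratin KRT19 1 to 11 (beside 3577 to 8121 of KRT8 and 2578 to 17535 of KRT18), TP63 0 to 10 and ESRP1 0 to 2, and GRHL2 was at 0 in every library. CDH1, TP63 and ESRP1 are genes that basal breast epithelial cells are known to express. The same libraries held 674 to 3906 counts of CDH2, 657 to 1841 of TWIST1, 1079 to 2361 of TWIST2, 13969 to 214287 of POSTN and 2580 to 10575 of the fibroblast marker DCN and 58 to 499 of the fibroblast marker PDGFRB, whereas the other 2 markers of that list, PDGFRA and LUM, reached at most 4 and 2 counts. The libraries labelled MCF10A therefore carried basal keratins without E-cadherin, and MCF10A below stands for the libraries so labelled. In the libraries labelled MDA-MB-231, KRT8 and KRT18 ran from 6369 to 14370 and from 7147 to 15512 counts, overlapping with MCF10A, KRT19 from 3111 to 14640 and CDH1 from 2 to 10 counts, and KRT5 reached at most 5.

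Some libraries stood apart from their replicate partners. Across 13068 genes of MCF10A with a transcript length, the difference between replicates 2 and 1 followed length, with a Spearman rho of −0.66 in NPP T, −0.60 in HPP T, −0.58 in H T, 0.67 in N P and 0.61 in H P. The medians parted most in NPP T, where the log2 difference was 0.81 for the shortest tercile of transcripts and −1.02 for the longest. Replicate 2 of NPP T and of HPP T in MCF10A had 5.35 and 10.2 CPM (counts scaled to a common library size) of ZEB1, whose transcript has 5937 bases, against 37.4 and 27.4 CPM in replicate 1. The plot of replicate differences by length shows smaller shifts in MDA-MB-231, where rho ran from −0.51 to 0.39 over 13449 genes. The called changes of the 10 genes in MCF10A under PP242 against N, those between the lines and the Te of VIM are also given without these 2 libraries. Neither library enters a polysomal comparison or the normoxic comparison between the lines. There, leaving them out alters only the filter, scaling and shared spread of the fit, and is no check on distorted libraries. The N P and H P libraries, which do enter polysomal comparisons, were kept.

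**Figure D1:**
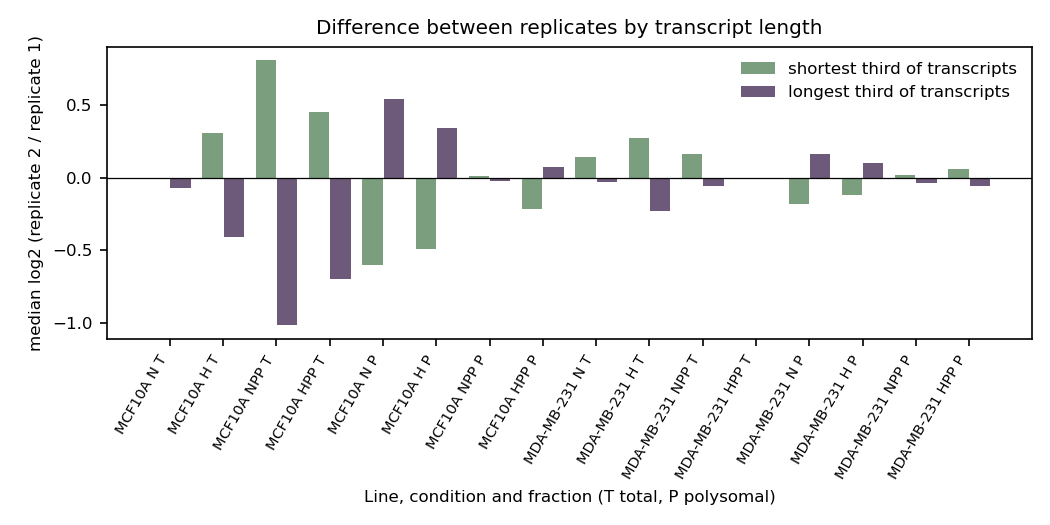
Median log2 ratio of replicate 2 to replicate 1 (vertical axis) for the shortest and the longest tercile of transcripts in each of the 16 groups of line, condition and fraction. The bars part most in MCF10A NPP T, at 0.81 and −1.02, and lie near 0 in groups such as MCF10A NPP P.

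Levels were compared between genes only per kilobase of transcript, using the Ensembl canonical transcript. In normoxic total RNA of MCF10A the order was VIM at 1150 ± 139 CPM per kb (SD, n = 2), FN1 at 303 ± 63.3, SNAI2 at 69.8 ± 10.8, TWIST1 at 25.2 ± 3.39, CDH2 at 19.2 ± 0.198, ZEB1 at 4.28 ± 0.528, ZEB2 at 2.0 ± 0.0799, CDH3 at 1.22 ± 0.33, SNAI1 at 0.537 ± 0.149 and CDH1 at 0.0193 ± 0.0093. No 2 neighbours in this order overlapped between their libraries. In MDA-MB-231 the order was VIM at 1340 ± 100 CPM per kb, SNAI2 at 32.4 ± 3.39, FN1 at 10.7 ± 2.4, ZEB1 at 9.44 ± 1.46, ZEB2 at 1.1 ± 0.075, SNAI1 at 0.378 ± 0.096, CDH2 at 0.234 ± 0.122, CDH1 at 0.0818 ± 0.0241, CDH3 at 0.0775 ± 0.019 and TWIST1 at 0. There FN1 and ZEB1, SNAI1 and CDH2, and CDH1 and CDH3 overlapped and cannot be ordered. VIM led in both lines, and the Snail family was uneven, with SNAI2 far above SNAI1 in each.

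**Figure D2:**
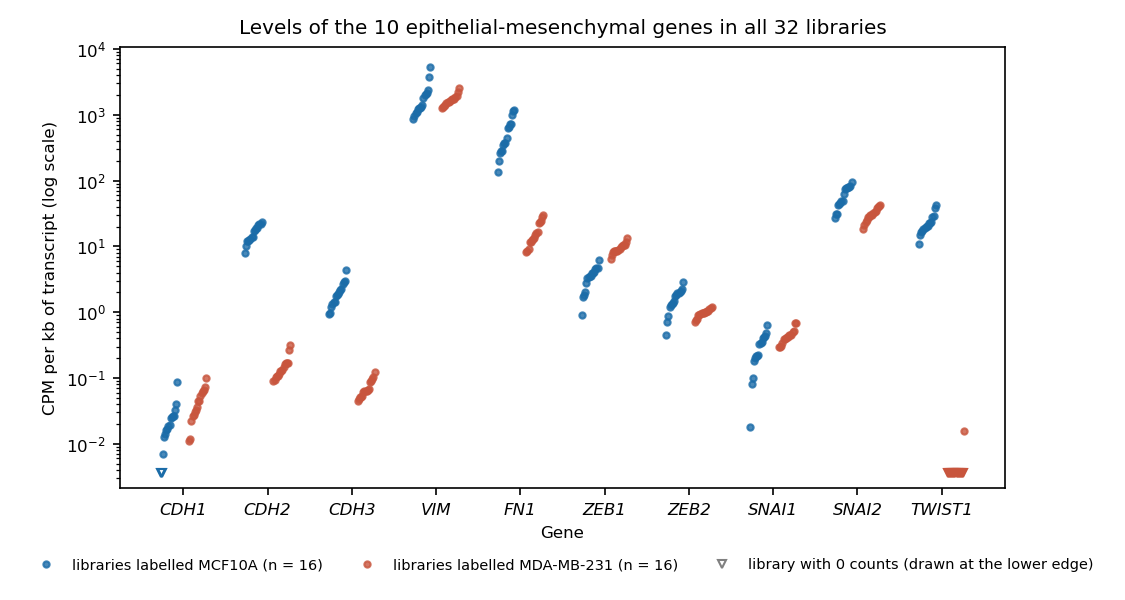
CPM per kilobase of transcript (log scale) of each gene, with 1 point per library and 16 libraries per line, over all conditions and both fractions. CDH2, CDH3, FN1, TWIST1 and, narrowly, ZEB1 separate the lines without overlap, VIM does not, and triangles at the lower edge mark libraries with 0 counts.

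The lines were compared in normoxic total RNA by fitting all 32 libraries together and applying edgeR's quasi-likelihood test. A gene is called where its Benjamini-Hochberg adjusted p was under 0.05. By this measure 5 of the 10 members were lower in MDA-MB-231 and 0 higher, where 40.7% of 14298 tested genes were called. CDH2, N-cadherin, had 77.5 and 76.4 CPM in MCF10A and 0.592 and 1.28 CPM in the other line, a log2 fold change of −6.40 ± 0.465 (SE) with an adjusted p of 6.07e-10. CDH3, P-cadherin of basal epithelium, had 6.47 and 4.38 CPM against 0.405 and 0.285, and its log2 fold change was −3.93 ± 0.433 with an adjusted p of 2.26e-07. Neither cadherin overlapped between the lines. FN1, the matrix glycoprotein fibronectin, had 2914 and 2163 CPM in MCF10A against 104.3 and 75.8 CPM (log2 fold change −4.82 ± 0.449, adjusted p = 2.09e-08). SNAI2, the repressor Slug, differed less, with 136 and 169 CPM against 75.8 and 65.4 (log2 fold change −1.11 ± 0.212, adjusted p = 0.000241). TWIST1, a basic helix-loop-helix factor, had 44.9 and 37.1 CPM in MCF10A and 0 counts in both MDA-MB-231 libraries. The mean of its MCF10A libraries was 287-fold above the higher floor of those MDA-MB-231 libraries, set at 3 counts per library. Over all 16 MDA-MB-231 libraries, TWIST1 had 1 count in 1 library. It passed the filter of the joint fit only through MCF10A, where it was high, so its call describes these counts and adds no support to them. These 5 calls held in each of the 24 fits that left out 1 library.

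The other 5 members were not called between the lines. VIM had 2269 and 2691 CPM in MCF10A against 2736 and 3041 CPM (log2 fold change 0.22 ± 0.363, adjusted p = 0.665), and SNAI1 had 0.736 and 1.10 against 0.53 and 0.761 CPM (−0.53 ± 0.609, adjusted p = 0.525). CDH1 stood at 0.0613 and 0.125 CPM in MCF10A and at 0.312 and 0.476 in MDA-MB-231, where each of the 2 libraries had 10 counts (log2 fold change 1.98 ± 0.831, adjusted p = 0.0621). E-cadherin mRNA was thus at or near the counting floor in both lines, and no epithelial level of it was available for comparison. ZEB1 had a log2 fold change of 1.14 ± 0.545 (adjusted p = 0.102) and ZEB2 one of −0.86 ± 0.494 (adjusted p = 0.176). Without replicate 2 of NPP T and HPP T in MCF10A, the count of called members was 8, the 5 above included, with CDH2 at −6.35 (adjusted p = 6.38e-11), CDH3 at −3.86 (adjusted p = 3.47e-07), FN1 at −4.75 (adjusted p = 3.17e-09), SNAI2 at −1.04 (adjusted p = 0.000273) and TWIST1 at an adjusted p of 1.11e-07. The other 3 were ZEB1 at 1.21 (adjusted p = 0.00218), ZEB2 at −0.80 (adjusted p = 0.0255) and CDH1 at 2.05 (adjusted p = 0.048). The 2 libraries left out are not among those compared here, so only the filter, scaling and shared spread of the fit changed. CDH1 passed the filter of the joint fit only through MDA-MB-231, where its counts were higher. In bulk RNA, fewer cells of a kind and less RNA per cell cannot be told apart for any of the differences between the lines.

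Treatments were compared with normoxia within each fraction and line, with the 16 libraries of a line fitted together. CDH1 was not tested in MCF10A and TWIST1 was not tested in MDA-MB-231, because their counts were too low for the filter, so that 9 members were tested per line. Hypoxia alone called 0 of 9 members in both fractions of both lines, where it called 1.54% of all tested genes in MCF10A T, 1.49% in MCF10A P, 1.27% in MDA-MB-231 T and 2.29% in MDA-MB-231 P. At an unadjusted p under 0.05, edgeR had CDH3 in MCF10A T, 0 members in MCF10A P, CDH2, FN1 and VIM in MDA-MB-231 T, and FN1 in MDA-MB-231 P, and DESeq2 called 0 members in all 4. PP242 in normoxia called 1 of 9 members in MCF10A T, where the share of all genes was 0.648%, and 0 of 9 in MCF10A P, MDA-MB-231 T and MDA-MB-231 P, where it was 0.823%, 0.555% and 1.95%. In those 3 comparisons edgeR had 2, 5 and 2 members at an unadjusted p under 0.05, and DESeq2 called 2, 0 and 1.

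Hypoxia with PP242 called more of the members, namely 2 of 9 in MCF10A T and 3 of 9 in MCF10A P, against 14.9% and 22.2% of all genes, and 2 of 9 in MDA-MB-231 T and 1 of 9 in MDA-MB-231 P, against 13.2% and 19.4%. The median log2 fold change of the tested members was −0.53 in MCF10A T, 0.00 in MCF10A P, −0.02 in MDA-MB-231 T and 0.11 in MDA-MB-231 P, beside −0.01, −0.04, −0.05 and 0.01 over all genes. The replicate spread was wider in MCF10A, where the SE of the HPP T change was 0.479 for FN1 and 0.483 for VIM, beside 0.249 and 0.149 in MDA-MB-231. FN1 rose in all 4 comparisons, VIM rose in total RNA of both lines, CDH3 rose in polysomal RNA of MCF10A, and SNAI2 fell there.

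**Figure D3:**
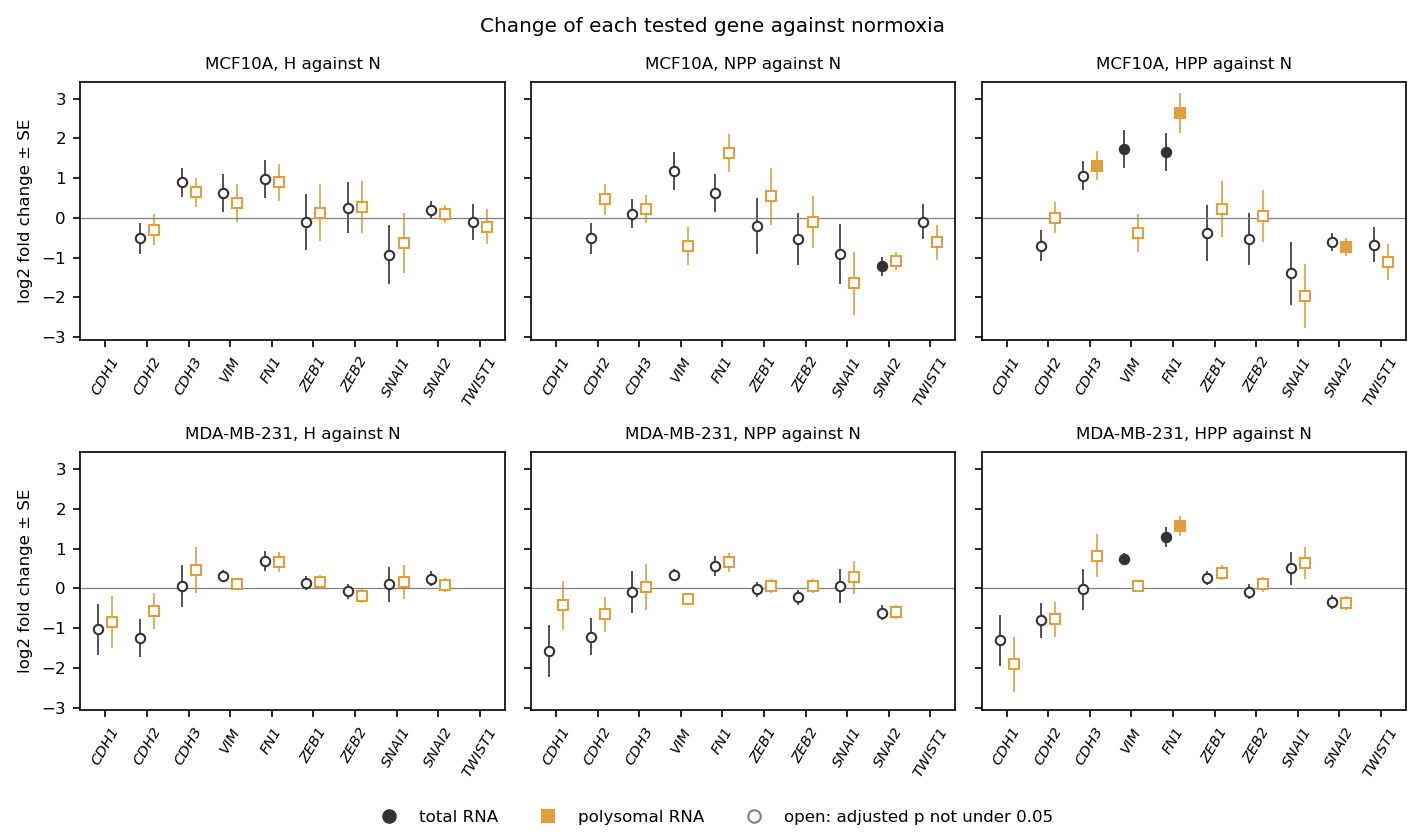
Log2 fold change against normoxia (vertical axis, bars ± SE) of each tested gene under H, NPP and HPP in total and polysomal RNA, with filled symbols at an adjusted p under 0.05. FN1 lies above 0 in every panel and reaches 2.64 in polysomal RNA of MCF10A under HPP, and SNAI2 lies below 0 in the panels with PP242.

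FN1 encodes fibronectin, which cells assemble into the matrix and bind through integrins. Total RNA of MCF10A held 2914 and 2163 CPM of FN1 in N, 6058 and 3662 in H, 5279 and 2340 in NPP, and 9549 and 6122 in HPP. Polysomal RNA of MCF10A held 1136 and 1658 CPM in N, 2368 and 3103 in H, 5500 and 3118 in NPP, and 8332 and 9771 in HPP. Both HPP libraries were above both N libraries in each fraction, and in polysomal RNA so were both H and both NPP libraries. Under HPP, FN1 rose by a log2 fold change of 1.67 ± 0.479 in total RNA (adjusted p = 0.0374) and of 2.64 ± 0.496 in polysomal RNA (adjusted p = 0.00375). With a term for replicate number (a replicate block) the total RNA value was 1.65 (adjusted p = 0.0297). A block within each fraction gave 1.62 (adjusted p = 0.00483). The polysomal call held in each of 16 fits that left out 1 library, and the total RNA call in 10 of them. Leaving out either library of HPP T, N T or HPP P ended the total RNA call, with adjusted p up to 0.244, and the fit to total RNA alone gave 0.115. Without replicate 2 of NPP T and HPP T the total RNA value was 2.02 (adjusted p = 0.0164) and the polysomal value 2.69 (adjusted p = 0.000967). FN1 in NPP P had 1.65 ± 0.479 (adjusted p = 0.134), and the value was 1.61 without the 2 libraries. Over 25 other settings it ran from 1.18 to 2 and was called in 4 of them, the fit without the 2 libraries among them.

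MDA-MB-231 held much less FN1 and showed the same direction. Its total RNA had 104.3 and 75.8 CPM in N, 198 and 97.7 in H, 134 and 138 in NPP, and 207 and 251 in HPP. Its polysomal RNA had 68.0 and 71.1 CPM in N, 108.6 and 110.9 in H, 123 and 98.8 in NPP, and 233 and 187 in HPP. The 2 HPP libraries were the highest of the 8 in each fraction, and only H replicate 2 of total RNA fell among the N libraries. FN1 rose under HPP by 1.29 ± 0.249 in total RNA (adjusted p = 0.00466) and by 1.56 ± 0.251 in polysomal RNA (adjusted p = 0.000849) on the log2 scale. The first call was lost without N T replicate 2 (adjusted p = 0.0661). Against hypoxia alone, FN1 rose under HPP in polysomal RNA of MDA-MB-231 by 0.90 ± 0.246 (adjusted p = 0.0308), the only 1 of 9 members called there, where 11.5% of all genes were, and leaving out any of the 4 libraries compared ended the call. The corresponding value in MCF10A P was 1.75 ± 0.48 (adjusted p = 0.053). It ran from 1.58 to 1.91 over 24 other settings and was called in 9 of them.

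**Figure D4:**
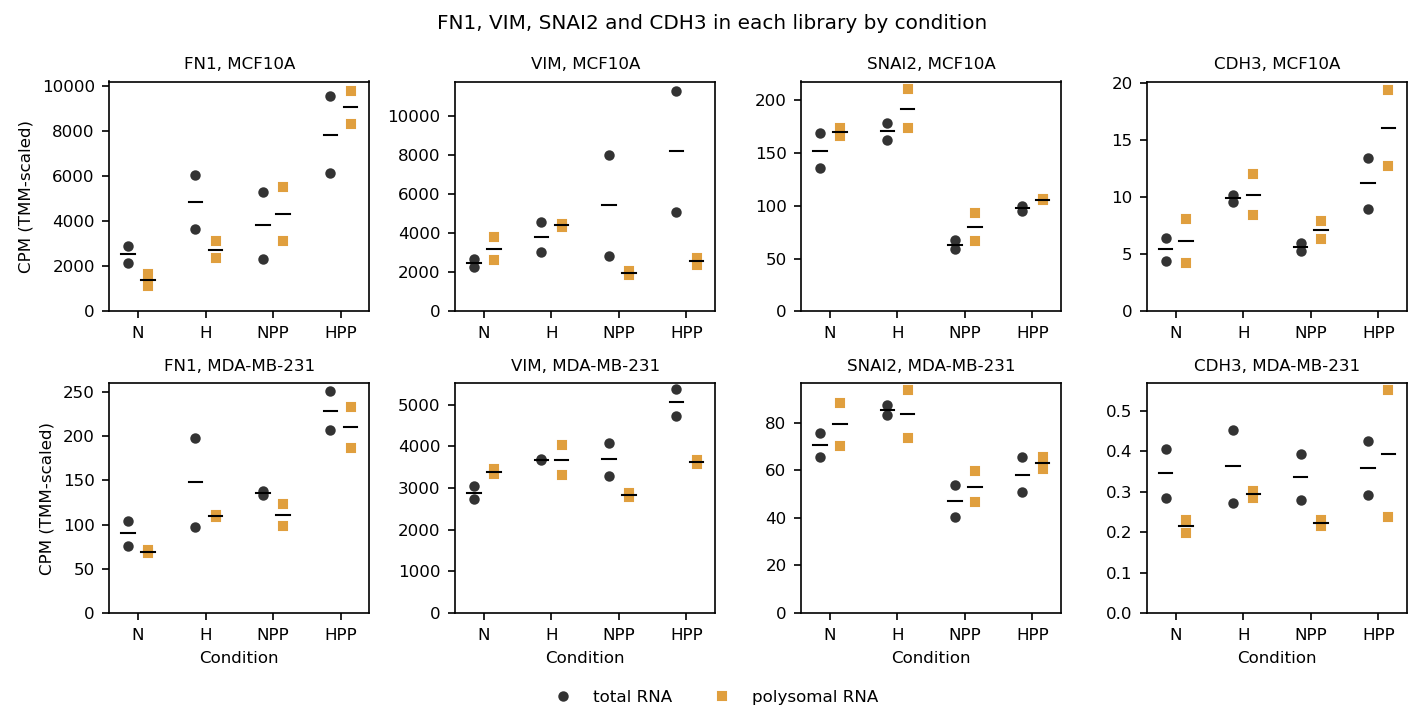
CPM of FN1, VIM, SNAI2 and CDH3 (vertical axes from 0) in each of 2 libraries per condition in total and polysomal RNA of MCF10A (upper row) and MDA-MB-231 (lower row), with lines at the means. FN1 is highest in HPP in both lines, the means of SNAI2 are lowest in NPP, and the high VIM values of MCF10A under PP242 are those of replicate 2 of total RNA, 7989 and 11300 CPM.

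VIM encodes vimentin, the intermediate filament of mesenchymal cells. In MCF10A total RNA its values were 2269 and 2691 CPM in N, 3042 and 4570 in H, 2853 and 7989 in NPP, and 5080 and 11300 in HPP. The polysomal values were 3812 and 2603 CPM in N, 4308 and 4493 in H, 2072 and 1832 in NPP, and 2754 and 2395 in HPP. Total RNA was thus highest in HPP without overlap with N, whereas polysomal HPP overlapped with N and polysomal NPP lay below it. VIM rose in total RNA under HPP by 1.73 ± 0.483 on the log2 scale (adjusted p = 0.0325), and its polysomal value was −0.38 ± 0.47 (adjusted p = 0.605). The total RNA value was 1.69 with a replicate block (adjusted p = 0.0378) and 1.62 with a block within each fraction (adjusted p = 0.00419). Without the 2 total RNA libraries of replicate 2 that stood apart, the total RNA value was 1.15 (adjusted p = 0.0613). Leaving out HPP T replicate 2 alone gave 1.12 (adjusted p = 0.273), and N T replicate 1, N T replicate 2, NPP P replicate 1 or NPP P replicate 2 also ended the call, as did the fit to total RNA alone (adjusted p = 0.128).

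The changes of VIM in MDA-MB-231 had smaller errors. Total RNA held 2736 and 3041 CPM in N, 3690 and 3666 in H, 3295 and 4090 in NPP, and 4743 and 5384 in HPP. Every treated library exceeded both N libraries, which all these comparisons share. Polysomal RNA held 3331 and 3464 CPM in N, 4025 and 3327 in H, 2798 and 2891 in NPP, and 3585 and 3683 in HPP. VIM rose in total RNA under HPP by 0.75 ± 0.149 on the log2 scale (adjusted p = 0.00574), in each of 16 fits that left out 1 library. Both polysomal HPP libraries lay above both N libraries with a value of 0.06 ± 0.148 (adjusted p = 0.807), both NPP libraries lay below, and H overlapped with N.

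SNAI2 encodes Slug, a zinc finger repressor that basal breast cells use in normal tissue as well as in EMT. Total RNA of MCF10A had 136 and 169 CPM in N, 163 and 178 in H, 67.7 and 58.9 in NPP, and 95.5 and 100 in HPP. Polysomal RNA had 167 and 174 CPM in N, 210 and 174 in H, 66.7 and 92.8 in NPP, and 106.3 and 105.6 in HPP. All 8 PP242 libraries of MCF10A lay below all 8 libraries without PP242. SNAI2 fell in NPP T by 1.22 on the log2 scale (SE 0.23, adjusted p = 0.0375), in HPP P by 0.74 (SE 0.227, adjusted p = 0.0374), and against hypoxia alone in HPP P by 0.84 (SE 0.228, adjusted p = 0.0487). The last was the only 1 of 9 members called for HPP against H in MCF10A P, where 6.50% of all genes were called. These calls sat close to the threshold, and a replicate block ended the last of them (adjusted p = 0.0555), whereas a block within each fraction kept it (adjusted p = 0.0283). The HPP P call was also lost with an offset for transcript length (−0.63, adjusted p = 0.0528), without the filter (adjusted p = 0.119) and from polysomal RNA alone (adjusted p = 0.0762). The NPP T call was lost without the filter (adjusted p = 0.0859) and from total RNA alone (adjusted p = 0.215), and that against H without the filter (adjusted p = 0.114) and with all gene classes (adjusted p = 0.0549). They held in 1, 5 and 2 of 16 fits that left out 1 library, with log2 values from −1.37 to −1.06, −0.80 to −0.68 and −1.01 to −0.68. Without replicate 2 of NPP T and HPP T the NPP T value was −1.14 (adjusted p = 0.187), the HPP P value −0.69 (adjusted p = 0.0408) and the HPP T value −0.56 (adjusted p = 0.235). In NPP P the value was −1.08 ± 0.229 (adjusted p = 0.0574), and in HPP T −0.61 ± 0.227 (adjusted p = 0.0959). These were called in 7 and 1 of 25 other settings. Without those 2 libraries NPP P became a call, at −1.12.

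In MDA-MB-231, SNAI2 had 75.8 and 65.4 CPM in N, 83.2 and 87.2 in H, 54.0 and 40.4 in NPP, and 65.7 and 50.7 in HPP of total RNA. Its polysomal libraries had 88.1 and 70.3 CPM in N, 93.8 and 73.6 in H, 59.8 and 46.5 in NPP, and 65.6 and 60.4 in HPP. Both NPP libraries were below both N libraries in each fraction, whereas HPP of total RNA overlapped with N. No comparison of SNAI2 was called in this line in the fit without a block, with log2 fold changes of −0.61 ± 0.186 in NPP T (adjusted p = 0.208), −0.60 ± 0.185 in NPP P (adjusted p = 0.147), −0.34 ± 0.185 in HPP T (adjusted p = 0.242) and −0.36 ± 0.185 in HPP P (adjusted p = 0.183). A replicate block called SNAI2 lower in NPP T (−0.62, adjusted p = 0.0443) and NPP P (−0.60, adjusted p = 0.0262), and against H in HPP T (−0.61, adjusted p = 0.0171) and HPP P (−0.44, adjusted p = 0.0389), as did a block within each fraction. DESeq2 called it in NPP P (adjusted p = 0.0454) and in T against H (adjusted p = 0.0468). For HPP against H, 0 of 9 members were called in total RNA of MCF10A and of MDA-MB-231, where 3.74% and 3.78% of all genes were. SNAI2 and VIM in MCF10A, and FN1, SNAI2 and VIM in MDA-MB-231, had an unadjusted p under 0.05 there, and DESeq2 called 1 and 2 members.

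CDH3 encodes P-cadherin, the classical cadherin of basal epithelial cells. In MCF10A it had 6.47 and 4.38 CPM in N, 9.62 and 10.2 in H, 5.31 and 6.02 in NPP, and 8.94 and 13.5 in HPP of total RNA. The polysomal values were 8.07 and 4.23 CPM in N, 8.41 and 12.03 in H, 7.88 and 6.35 in NPP, and 12.7 and 19.4 in HPP. The H and HPP libraries lay above the N libraries in both fractions, and the NPP libraries lay within their range. CDH3 rose in HPP P by 1.31 ± 0.365 on the log2 scale (adjusted p = 0.0242), and in HPP T the value was 1.06 ± 0.364 (adjusted p = 0.0731). These values were 1.37 (adjusted p = 0.0156) and 0.83 (adjusted p = 0.238) without replicate 2 of NPP T and HPP T. The polysomal call was lost without HPP P replicate 2 (adjusted p = 0.173), without N P replicate 2 (adjusted p = 0.137), and with an offset for transcript length (adjusted p = 0.0603). In MDA-MB-231 it had 6 to 21 counts per library, and its log2 fold changes ran from −0.09 to 0.82 with none called.

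CDH1 and CDH2 were not called under any treatment in the main fit. In MDA-MB-231, CDH1 had 0.312 and 0.476 CPM in N T and 0.346 and 0.284 in N P, and 0.175 and 0.146 in HPP T and 0.0524 and 0.108 in HPP P. The HPP libraries were below the N libraries in each fraction, but at 2 to 10 counts per library the precision was low (log2 fold change −1.91 ± 0.699 in HPP P, adjusted p = 0.0681). This HPP P value ran from −2.52 to −1.55 over 23 other settings and was called in 1 of them. CDH2 in MCF10A had 77.5 and 76.4 CPM in N T and 32.2 to 72.3 CPM in the 6 treated libraries of total RNA, all below the same pair of N libraries. Its polysomal values of 47.6 to 95.2 CPM spread around the 48.1 and 87.5 CPM of N P. Its log2 fold change under HPP was −0.70 ± 0.386 in total RNA (adjusted p = 0.267) and 0.01 in polysomal RNA (adjusted p = 0.995). MDA-MB-231 held 11 to 38 counts of CDH2 per library.

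The ZEB factors, zinc finger and homeodomain repressors of E-cadherin, were not called under any treatment in the main fit. ZEB1 ran from 49.9 to 79.1 CPM in total RNA of MDA-MB-231 and from 38.5 to 63.3 CPM in polysomal RNA, and its largest change there was 0.40 ± 0.179 in HPP P (adjusted p = 0.129). That change ran from 0.27 to 0.63 over 24 other settings and was called in 2 of them. ZEB2 ran from 8.41 to 11.1 CPM and from 6.58 to 9.61 CPM, with log2 fold changes of −0.23 to 0.11. In MCF10A, where replicates 2 of NPP T and HPP T had 5.35 and 10.2 CPM of ZEB1 and 4.20 and 6.52 CPM of ZEB2, the SE of each change was 0.65 to 0.71, so that a 2-fold change could not be told from no change. Without those 2 libraries the HPP T value of ZEB1 was 0.22 ± 0.421 in place of −0.38, and that of ZEB2 0.09 ± 0.419 in place of −0.53.

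The promoters of the ZEB genes are shown because hypoxia-inducible factors and E-box repressors are known to read short sequences there. The letters ACGTG, the core of the hypoxia response element, and CACCTG, an E-box that ZEB and Snail factors prefer, were searched on both strands in RefSeq promoters of GRCh38.p14, from 250 bases before to 50 after each start. Entries were found for CDH2, VIM, FN1, ZEB1 and ZEB2. ACGTG was in 21.4% and CACCTG in 20.6% of all 35116 promoters, and neither holds the other. Capitals mark the match, and CACGT and CAGGTG are the same letters read on the other strand. The windows run 5′ to 3′ on the strand of the gene, before one of its RefSeq starts, and a match is a description of these letters only.
ZEB2, chr2:144520290-144520319, minus strand, from −188: aaacttggcgatCACGTtttcacatgatgc
ZEB2, chr2:144520153-144520182, minus strand, from −51: gaagaggcgtaaCACGTcagtccgtcccca
ZEB1, chr10:31321062-31321091, plus strand, from −127: aaacgaggaaatACGTGtttaggagaaaac
ZEB1, chr10:31318348-31318377, plus strand, from −57: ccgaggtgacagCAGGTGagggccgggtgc
The number after each strand is the position of the first matched base from that start, and ZEB1 has 7 such starts in the table. Around them ZEB1 holds 2 matches to ACGTG and 4 to CACCTG, and the one nearest before a start is shown for each, with the others at −250 for ACGTG and at −242, −85 and 34 for CACCTG. VIM has 1 match to ACGTG, at 9, which is not shown.

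SNAI1, the founding repressor of the Snail family, was low throughout, at 1 to 44 counts per MCF10A library and 13 to 47 per MDA-MB-231 library. In MCF10A it had 0.736 and 1.10 CPM in N T, 0.363 and 0.596 in H T, 0.385 and 0.573 in NPP T, and 0.137 and 0.567 in HPP T. The polysomal values were 0.826 and 0.716 CPM in N, 0.338 and 0.691 in H, 0.168 and 0.314 in NPP, and 0.0307 and 0.371 in HPP. All 12 treated libraries lay below both N libraries of their fraction. They share those N libraries, and T and P share cultures, so the 12 are not independent. How many of all genes separate this way was not counted. No comparison of SNAI1 was called, and the largest value was −1.96 ± 0.808 in HPP P (adjusted p = 0.105). That value ran from −4.50 to −1.15 over 25 other settings and was called in 3 of them, which were the replicate block (−2.19, adjusted p = 0.036), the block within each fraction (−2.15, adjusted p = 0.0281) and the fit without HPP P replicate 2 (−4.50, adjusted p = 0.0382), where 1 count in replicate 1 remained. The HPP T value of −1.40 ± 0.785 was −2.60 ± 1.092 without replicate 2 of NPP T and HPP T (adjusted p = 0.15). In MDA-MB-231 its log2 fold changes ran from 0.06 to 0.64 with none called. TWIST1 in MCF10A had 44.9 and 37.1 CPM in N T and 24.1 and 26.6 in HPP T, and 69.1 and 32.4 CPM in N P and 31.0 and 17.9 in HPP P, with log2 fold changes of −0.67 ± 0.447 (adjusted p = 0.365) and −1.11 ± 0.45 (adjusted p = 0.1). The polysomal value ran from −1.62 to −0.37 over 25 other settings and was called in 2, the block within each fraction (−1.07, adjusted p = 0.0211) and the fit without N P replicate 2 (−1.58, adjusted p = 0.0422).

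Te was tested by a term for fraction by treatment, without a term for the culture that a T and a P library share. For H, HPP and NPP in turn it called 0 of 9 members in MCF10A, where the share of all genes was 0, 0 and 0%, and 0 of 9 in MDA-MB-231, where it was 0.0148%, 0.696% and 0.340%. VIM was the only member at an unadjusted p under 0.05, in HPP and NPP of each line. Its Te was −2.11 ± 0.671 in HPP and −1.88 ± 0.67 in NPP of MCF10A, and −0.68 ± 0.21 in HPP and −0.60 ± 0.21 in NPP of MDA-MB-231. The adjusted p were 0.738, 0.99, 0.497 and 1. With a block for culture, Te and the normoxic P against T comparison also called 0 of 9 members in each line, and VIM in MCF10A had −1.995 ± 0.759 under HPP (adjusted p = 0.945) and −1.67 ± 0.763 under NPP (adjusted p = 0.963). The blocked values of MDA-MB-231 were −0.68 ± 0.222 (adjusted p = 0.694) and −0.60 ± 0.222 (adjusted p = 1). Without replicate 2 of NPP T and HPP T, the MCF10A values were −1.47 ± 0.467 and −0.98 ± 0.469 (adjusted p of 1 each). DESeq2 called both values in MDA-MB-231, at −0.74 (adjusted p = 0.00615) and −0.64 (adjusted p = 0.0295), and 0 members in MCF10A. The 2 treatments share their N libraries. FN1 had Te of 0.97 ± 0.662 in HPP of MCF10A and 0.28 ± 0.347 in HPP of MDA-MB-231, and SNAI2 −0.13 ± 0.32 and −0.02 ± 0.261, so that no difference between their fractions was detectable at this error. The Te of CDH1, CDH2, CDH3, ZEB1, ZEB2, SNAI1 and TWIST1 under HPP ran from −0.56 to 0.70 in MCF10A and from −0.61 to 0.85 in MDA-MB-231, where tested. In normoxia, polysomal against total RNA called 0 of 9 members in each line, where 0% and 13.1% of all genes were called, with 0 members at an unadjusted p under 0.05 and 0 by DESeq2.

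Whether the lines responded differently was tested in the joint fit. TWIST1 was at 0 in the MDA-MB-231 libraries compared, so that its difference could not be estimated. For the other 9 members, the difference between lines called 0 for H in total RNA, HPP in total RNA, H in polysomal RNA and HPP in polysomal RNA, where 0.266%, 3.31%, 0.329% and 3.60% of all genes were called. DESeq2 called 0 members in all 4, and at an unadjusted p under 0.05 edgeR had 0, 1, 0 and 2. SNAI1 had a difference of 2.55 ± 0.896 in HPP P (MDA-MB-231 minus MCF10A, adjusted p = 0.133), and CDH1 one of −4.48 ± 1.267 (adjusted p = 0.0532), which rests on 0 to 16 counts per library. Over 31 other settings, the SNAI1 difference ran from 1.72 to 5.16 and was called in 2. That of CDH1 ran from −8.08 to −3.01 and was called in 4. FN1 differed by −1.10 ± 0.543 in HPP P (adjusted p = 0.317), which was called in 1 of 31 other settings, and SNAI2 by 0.35 ± 0.297 (adjusted p = 0.62). CDH2, CDH3, VIM, ZEB1 and ZEB2 had differences of −0.81 to 0.41 in HPP P. The call of CDH3 and SNAI2 in MCF10A and not in MDA-MB-231, where replicate blocks did call SNAI2 in NPP, is therefore not shown to be a difference between the lines.

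Companion lists place the members among their partners. Of 20 junction partners, 16 were tested in MCF10A, and HPP called 3 up and 0 down in total RNA and 5 up and 0 down in polysomal RNA, beside 14.9% and 22.2% of all genes called in either direction. These counts were 2 and 8 up without replicate 2 of NPP T and HPP T. JUP, plakoglobin of the cadherin complex, rose 5.3-fold in total and 7.21-fold in polysomal RNA, and the desmosomal plaque gene PKP1, at 1 to 138 counts per library, rose 20.2-fold and 21.8-fold (14.3-fold and 22.9-fold without the 2 libraries). In MDA-MB-231 HPP called 4 of 17 up in total RNA and 4 up and 1 down in polysomal RNA, beside 13.2% and 19.4% of all genes, with CRB3, at 2 to 24 counts per library, 5.09-fold and 5.41-fold higher and the desmosomal gene DSP 2.05-fold and 2.34-fold higher. Under H alone PKP1 was the 1 junction gene that rose in each fraction of MCF10A, beside 1.54% and 1.49% of all genes called in T and P, and 0 rose in MDA-MB-231, beside 1.27% and 2.29%. Under NPP JUP alone rose in each fraction of MCF10A, 3.22-fold and 4.38-fold, beside 0.648% and 0.823% of all genes. The first of these was 2.42-fold without the 2 libraries (adjusted p = 0.241).

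Of 22 further mesenchymal and matrix genes, HPP called 5 of 19 up in total RNA and 6 of 19 up in polysomal RNA of MCF10A, and 3 and 1 of 20 up in MDA-MB-231, with 0 down, where the shares of all genes were 14.9%, 22.2%, 13.2% and 19.4%. The MDA-MB-231 counts are thus near or below the background. The MCF10A counts were 4 and 8 without replicate 2 of NPP T and HPP T. LOX, the collagen cross-linking lysyl oxidase and a hypoxia target, rose in every comparison with hypoxia, 11.3-fold under H and 10.4-fold under HPP in MCF10A T, and 3.62-fold and 4.49-fold in MDA-MB-231 T. POSTN, periostin, rose 2.58-fold and 5-fold in T and P of MCF10A under HPP. H called 2 of 19 genes up in each fraction of MCF10A, LOX and COL1A1, where 1.54% and 1.49% of all genes were called, and LOX alone of 20 in each fraction of MDA-MB-231, where 1.27% and 2.29% were. NPP called 0 in both lines, where the shares in MCF10A were 0.648% and 0.823%, and those in MDA-MB-231 0.555% and 1.95%. In HPP P the line difference called LOX (−1.69 ± 0.421, adjusted p = 0.0272) and COL1A1 (−1.75 ± 0.373, adjusted p = 0.00961). These were 2 of 22 genes tested, where 3.60% of all genes were called.

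Among 10 other EMT factors, 7 were tested in MCF10A, and HPP called 2 of them in T and 3 in P, beside 14.9% and 22.2% of all genes. These counts were 3 and 4 without replicate 2 of NPP T and HPP T. NPP called 1 in each fraction, beside 0.648% and 0.823%, and H called 0, beside 1.54% and 1.49%. FOXC2, a forkhead factor of mesenchymal tissue, rose 3.06-fold and 3.21-fold under HPP and 2.57-fold and 2.41-fold under NPP, where the total RNA value was 2.11-fold without the 2 libraries (adjusted p = 0.14). TCF3 fell in HPP P, to 0.542 of N. None of the 5 factors tested in MDA-MB-231 was called under any treatment. In T and P, H called 1.27% and 2.29% of all genes there, NPP 0.555% and 1.95%, and HPP 13.2% and 19.4%. Of 15 TGF-β pathway genes in MCF10A, HPP called 1 up and 2 down in T and 1 up and 1 down in P, which is near the share of all genes in T (14.9%) and below it in P (22.2%). Without the 2 libraries P had 3 up and 2 down, and T was at 1 and 2. NPP called 1 down in each fraction, beside 0.648% and 0.823% of all genes. SMAD7, the inhibitory SMAD, fell in MCF10A to 0.292 and 0.395 under HPP and to 0.275 and 0.263 under NPP. The latent TGF-β binding protein LTBP1 rose 3.38-fold and 5.6-fold under HPP. TGFB2 fell in HPP T, to 0.168 of N, and the difference between lines in HPP T was called for it (3.02 ± 0.743, adjusted p = 0.0254). It was the only 1 of 15 so called, where 3.31% of all genes were. HPP called 1 up and 1 down of the 15 in T of MDA-MB-231 and 1 up in P, where 13.2% and 19.4% of all genes were called. In MDA-MB-231, TGFB1 rose 1.53-fold in H P, 1.62-fold in HPP T and 1.37-fold in HPP P, and the SMAD repressor SKIL fell in HPP T to 0.698.

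Of 12 epithelial identity factors, 5 were tested in MCF10A, where HPP called KLF4 in P (2.66-fold) and 0 in T, and 8 in MDA-MB-231, where it called KLF5 in both fractions (1.57-fold and 1.51-fold), all up. With 22.2% of all genes called in P of MCF10A and 13.2% and 19.4% in T and P of MDA-MB-231, these counts are near the background. Of the 6 basal markers, HPP called 4 up in each fraction of MCF10A, where 14.9% and 22.2% of all genes were called in T and P, among them KRT17 (9.8-fold and 5.09-fold) and KRT14 (5.18-fold and 4.84-fold). Without the 2 libraries 3 and 5 were called, with KRT17 at 5.35-fold in total RNA and KRT6A no longer called there (adjusted p = 0.0537). H called KRT6A in each fraction and ITGB4 in total RNA, beside 1.54% of all genes in T and 1.49% in P. The summed level of the basal markers in total RNA of MCF10A was 3535 and 2417 CPM in N, 4947 and 6863 in H, 3385 and 4775 in NPP, and 6405 and 10670 in HPP. It was higher in both H and both HPP libraries than in N, as were CDH3 and FN1, and its part in their change was not tested. In MDA-MB-231, where HPP called 13.2% and 19.4% of all genes in T and P, it called 2 of 4 basal markers up in each fraction, ITGB4 and ITGA6, and of 5 luminal markers GATA3 down in both fractions, KRT18 down in polysomal and KRT19 up in total RNA. Of the 4 fibroblast markers, 0 of 2 tested were called under any treatment in either line. Their sum in MCF10A total RNA was 111.6 and 80.8 CPM in N and 97.1 and 179 in HPP, with DCN the most abundant, PDGFRB at 3.92 and 4.91 CPM in N and 4.21 and 10.7 CPM in HPP, and PDGFRA and LUM at or near 0. CD68, the only tested one of 4 leukocyte markers in MCF10A, rose 3.02-fold in HPP T (2.41-fold without the 2 libraries), and fell to 0.723 in HPP P of MDA-MB-231. PECAM1, at 3 to 71 counts per MCF10A library, rose 5.88-fold and 5.45-fold in T and P of MCF10A under HPP. It was the only tested one of 3 endothelial markers there, and CDH5 and VWF reached at most 1 and 2 counts. Between the lines, MDA-MB-231 had 7 of 19 tested junction partners higher and 2 lower, 8 of 22 mesenchymal and matrix genes higher and 10 lower, 2 of 8 other EMT factors higher and 6 lower, and 5 of 6 basal markers lower, where 40.7% of all genes were called in either direction.

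By likeness of log2 CPM within each line over 32 libraries, the protein-coding genes closest to SNAI1 included MAMLD1 (Pearson r = 0.816) and MRAS (0.789). Those closest to VIM were IGBP1 (0.898), DNASE1L1 (0.887) and ZNF581 (0.872), and those closest to CDH2 included DBR1 (0.748) and FKBP5 (0.713). For CDH1, over the 16 libraries of MDA-MB-231, they were SLC16A9 (0.85), ADGRF4 (0.836) and NUDT19 (0.83). The libraries share conditions and the length pattern above, and SNAI1, CDH1 and CDH2 include low counts, so these values are descriptions.

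The loci lie on GRCh38 in the GENCODE v44 annotation. CDH3 and CDH1 are neighbours on chromosome 16, at chr16:68636189-68727468 and chr16:68737292-68835537, both on the plus strand. VIM is at chr10:17228241-17237593 and overlaps the antisense gene VIM-AS1 at chr10:17214239-17230018, and ZEB1 at chr10:31318495-31529814 overlaps ZEB1-AS1 at chr10:31206278-31320447. FN1 is at chr2:215360440-215436073, ZEB2 at chr2:144364364-144521057, CDH2 at chr18:27932879-28177946, SNAI1 at chr20:49982980-49988886, SNAI2 on chromosome 8 and TWIST1 at chr7:19020991-19117636. No strand was stated for the libraries, so reads of VIM and VIM-AS1, and of ZEB1 and ZEB1-AS1, cannot be told apart where they overlap. With all gene classes in the fit, HPP called 12.0% and 18.8% of genes in T and P of MCF10A and 10.4% and 17.1% in MDA-MB-231, and VIM-AS1 was among them in all 4 and ZEB1-AS1 in the 2 of MDA-MB-231. The VIM-AS1 call in T of MCF10A was lost without replicate 2 of NPP T and HPP T (adjusted p = 0.245).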

How the data were processed

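The authors prepared poly(A) TruSeq v2 libraries (paired reads of 76 bases, no strand stated), aligned them with STAR and estimated counts per gene with RSEM. The paper's methods name GRCh38 and GENCODE v24, whereas the submitters' processing notes list GRCh37. The values were deposited by the authors as whole-number expected counts per gene without normalisation. Columns were assigned to samples by barcode, and 0 columns were left over.

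Protein-coding genes were filtered with filterByExpr, scaled by TMM and tested with the quasi-likelihood test of edgeR 4.0.16 in R 4.3.3, with Benjamini-Hochberg adjustment over all tested genes (13124 in MCF10A, 13510 in MDA-MB-231, 14298 in the joint fit). All 16 libraries of a line were fitted in 8 groups (8 residual degrees of freedom). DESeq2 1.42.0 was an alternative. CPM used TMM sizes of all 32 libraries, and log2 CPM a prior count of 2. Transcript lengths came from GENCODE v44. With 2 libraries per group, p-values measure the spread between replicates only, and floors cover counting error only. Fits were tested on simulated data. The members and gene lists were chosen with earlier results of these data known. The rule was to name all 10 members in every comparison (those not called are in places given only by count, range or figure), and from each list up to 4 called genes of largest change, of which a few are not reported here. Offsets for length, the fit without 2 libraries and a replicate block in the joint fit were chosen after seeing the data. No label pairs different conditions by replicate number, and they were treated as unpaired. The number in the titles pairs the T and P library of a culture, whose replicate differences correlated from −0.25 to 0.214 in MCF10A and from 0.002 to 0.348 in MDA-MB-231. The fit treats the 16 libraries as independent, and a block for culture was an alternative for Te and for P against T.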

Additional observations from a re-analysis of the deposited data

Results flagged for a closer look

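Antisense genes lie outside the protein-coding rows of the comparisons above and were fitted with all gene classes. VIM-AS1, with 1.04 and 0.971 CPM in N T and 0.788 and 0.537 in N P of MCF10A, had 2.26 and 6.96 CPM in HPP T and 2.24 and 4.24 in HPP P, a log2 fold change of 2.14 ± 0.603 (edgeR, adjusted p = 0.0386) and 2.21 ± 0.615 (adjusted p = 0.0274). Without replicate 2 of NPP T and HPP T these were 1.27 ± 0.618 (adjusted p = 0.245) and 2.30 ± 0.547 (adjusted p = 0.0116). In MDA-MB-231 it had 4.08 and 5.28 CPM in N T and 9.14 and 11.8 in HPP T (log2 fold change 1.15 ± 0.34, adjusted p = 0.0451), and 4.27 and 3.91 CPM in N P and 8.49 and 11.1 in HPP P (1.25 ± 0.339, adjusted p = 0.0221). The HPP libraries were above the N libraries in all 4 cases, including polysomal RNA, where VIM itself was not called. ZEB1-AS1 in MDA-MB-231 had 6.20 and 5.42 CPM in N T and 11.8 and 13.1 in HPP T (1.08 ± 0.233, adjusted p = 0.0108), and 2.23 and 2.86 CPM in N P and 6.92 and 8.89 in HPP P (1.61 ± 0.244, adjusted p = 0.000629), while ZEB1 was not called. ZEB1-AS1 was also called there in NPP P (1.14 ± 0.245, adjusted p = 0.0279). The 6 HPP signals lie in data outside the main measurement and exceed the normoxic libraries. Under H, VIM-AS1 had values of similar size that were not called, with 1.82 ± 0.597 in T (adjusted p = 0.246) and 1.81 ± 0.614 in P (adjusted p = 0.232) of MCF10A, and 1.11 ± 0.341 (adjusted p = 0.167) and 0.91 ± 0.341 (adjusted p = 0.191) in the other line. Its HPP against H values of 0.04 to 0.40 were not called. ZEB1-AS1 in MDA-MB-231 was called for HPP against H in T (1.05 ± 0.231, adjusted p = 0.0306) and P (1.15 ± 0.237, adjusted p = 0.00816). Without strand, their reads cannot be told apart from those of VIM and ZEB1 where the genes overlap.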

How the results depend on the processing

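Counts of called members were recomputed for 29 comparisons. Of 216 values under other settings, 172 stayed within 1.5 times the main count, and no called member changed sign. Most of the 29 comparisons had a main count of 0, where the same count means 0 again. The 172 therefore say little about how stable the calls were. In MCF10A, HPP against N in total RNA (2 called) had 4 at an adjusted p under 0.10 and 0 from total RNA alone. In polysomal RNA (3 called) it had 1 with the length offset. NPP in total RNA (1 called) had 0 without the filter and 0 from 1 fraction alone. NPP in polysomal RNA (0 called) had 2 with DESeq2, 1 at 0.10 and 2 with the length offset. HPP against H in polysomal RNA (1 called) had 2 with DESeq2, 2 at 0.10, 2 with the length offset and 0 with all gene classes, and in total RNA (0 called) 1, 1 and 2 under the first 3 of these. In MDA-MB-231, no filter gave 1 for H in each fraction, 1 for NPP P, 2 for HPP P and 1 for HPP against H in T. DESeq2 gave 1 for NPP P, 2 for HPP against H in T, and 1 for Te in HPP and in NPP. A threshold of 0.10 gave 2 for HPP P and 1 for HPP against H in T, where the length offset also gave 1. Between the lines, the length offset gave 8 members in normoxia and 2 for the difference in HPP P, and 0.10 gave 1 for that difference.

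Leaving out 1 library (or both PP242 total libraries of replicate 2) gave 0 to 3 calls for HPP T, 2 to 3 for HPP P, 0 to 1 for NPP T, 0 to 2 for NPP P and 0 to 2 for HPP against H in P of MCF10A, 0 to 1 for H T, 1 to 2 for HPP T and 0 to 1 for HPP against H in T and in P of MDA-MB-231, and 5 to 8 between the lines, with 0 to 1 for the line difference in HPP P. Where an arm was left with 1 library, it was assumed to vary like the other groups.

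No label ties the replicate numbers of different conditions to a shared culture or day, and each group has 2 libraries, so conditions were treated as unpaired. The block for the culture shared by T and P changed no call of a member in Te or P against T. Same-numbered deviations correlated from 0.283 to 0.778 within total RNA and from −0.1 to 0.635 within polysomal RNA of MCF10A, from −0.641 to 0.778 over all its pairs, and from −0.187 to 0.348 in MDA-MB-231. With a replicate block, HPP against H in P and T of the latter line had 2 and 1 calls, NPP in P and T had 1 each, and there was 1 for the line difference in HPP P. A replicate block within each fraction gave these same counts in MDA-MB-231 with 2 for HPP P, and in MCF10A 5 for HPP P, 2 for NPP P, and 2 and 1 for HPP against H in P and T. Of the 2 blocks, the one not within fractions ended the SNAI2 call for HPP against H in P of MCF10A (−0.84, adjusted p = 0.0555). The cause of these changes was not tested. Depth limits CDH1, SNAI1 and, in MDA-MB-231, CDH2 and CDH3, which had under 50 counts per library.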
